A study of Homo sapiens with 8 samples.

Results

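The forkhead factors are transcription factors that share a winged-helix DNA-binding domain and are named by a letter for the subfamily and a number for the member. Here they were taken as the rows of the deposited expression table whose gene name was FOX, a letter from A to S and a number, with at most 1 further letter and digit. The rule used no measured value. It found 53 rows under 52 gene names, of 35940 gene names in the table. By GENCODE release 29, 49 of the 52 were protein coding and 3 were processed pseudogenes (FOXO3B, FOXO1B and FOXN3P1). A gene was tested if 2 or more of the 8 libraries listed it at 1 TPM or above, which held for 25 of the 52 and for 14908 of all gene names. TPM is a share of a library's transcripts, scaled by transcript length, so levels of different genes can be set beside each other.

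The cells were ESI017, a human embryonic stem cell line of wild type genotype and the 1 line used. They spent 24 h in mTeSR1, a stem cell medium, with ROCK inhibitor, which helps single stem cells survive, and were then moved to N2B27, a serum-free medium, with SB at 10 μM and LDN at 100 nM, short names that the labels do not spell out. WNT3A, a secreted ligand that stabilises beta-catenin, given here as human recombinant protein at 300 ng/mL, was added at 34 h. RNA was sequenced at 34, 42, 50 and 72 h, thus 0, 8, 16 and 38 h after WNT3A, with 2 libraries per time point, the second from an independent biological replicate. All groups shared SB and LDN, and no arm lacking WNT3A entered the comparison, so elapsed time and WNT3A cannot be told apart. In RNA of whole cultures, fewer cells of a type and less RNA per cell cannot be told apart either.

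Forkhead factors bind a short core motif, and several act in stages that a stem cell culture on its way to neural tissue can pass through. FOXH1 brings SMAD2 and SMAD3 to DNA when Nodal signals, and FOXD3 acts in the stem cells of the early embryo and again in the neural crest. FOXA factors open closed chromatin in endoderm, notochord and floor plate, FOXO factors are held out of the nucleus by insulin and AKT signalling, and FOXM1 drives genes of mitosis.

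Spearman correlations were 0.980 to 0.984 within a time point and 0.933 to 0.982 between time points, so these ranges overlapped. Mitochondrial genes held 8.70% to 11.2% of the TPM, and 13860 to 14004 gene names per library were at 1 TPM or above. The 6 pluripotency markers listed summed to 1684 and 1678 TPM in the 34 h libraries against 617 and 630 at 72 h. Most of this was POU5F1 and DPPA4, and 3 of the 6 were called lower by 72 h. PRDM14 was not, with 23.7 and 20.4 TPM at first and 28.8 and 24.5 in the 72 h libraries. Between these times PRDM14 dipped, to 7.28 and 8.56 TPM in the 42 h pair, with 11.9 and 9.64 in the 50 h pair. Both dips from 34 h were called, with changes of -1.37 (limma adjusted p 0.003686) and -0.975 (0.01096). The 6 neural progenitor markers summed to 378 and 361 against 717 and 674, mostly SOX2 (224 and 211, then 348 and 333) and NES. All 5 tested ones were called higher at 72 h, as were 12.7% of all tested genes. SOX1 went from 1.63 and 2.14 TPM to 56.5 and 45.2. PAX6, tested through the 72 h libraries, where it was high, reached 4.01 and 3.59, and HES5 was listed at 0 in both of them. The 6 neuronal markers summed to 276 and 223 TPM in the 34 h libraries against 192 and 223 at 72 h, mostly TUBB3 (261 and 210, then 168 and 201, not called), while DCX rose by 0.80 in log2(TPM + 1), at a limma adjusted p of 0.02731. STMN2, tested through later libraries, where it was high, had 0.320 and 0.256 TPM at first and 8.01 and 7.10 at 72 h. The 6 surface ectoderm markers, nearly all KRT18 and EPCAM, which stem cells also express, summed to 592 and 617 TPM and then to 93.3 and 109. No library had more than 2.89 TPM of the 6 trophoblast and amnion markers or 1.51 of the 6 endothelial and blood markers. The sums above compare 34 h with 72 h, and not all had shifted by 42 h. At 42 h the pluripotency markers summed to 1478 and 1388 TPM and the neural progenitor markers to 376 and 340. The neuronal markers then summed to 329 and 255 and the surface ectoderm markers to 526 and 496. The part of such shifts in the changes given here was not tested. TPM keeps no read number, so depth is unknown.

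More forkhead genes fell than rose, and most of the calls came by 72 h. Changes are differences in log2(TPM + 1), which understate the change of low genes, and a gene was called changed at a limma adjusted p under 0.05, adjusted over all tested genes. At 42 h against 34 h, 5 of the 25 tested forkhead genes changed, with FOXB1 and FOXD1 higher and FOXD3, FOXJ1 and FOXO1 lower, where 2.58% of all tested genes changed (1.78% higher, 0.792% lower). At 50 h against 34 h 7 changed, FOXA2 and FOXA3 being lower besides the same 5, where 6.26% of all tested genes changed (3.52% higher, 2.74% lower). At 72 h against 34 h 14 changed, 2 higher and 12 lower, where 24.0% of all tested genes changed (12.7% higher, 11.3% lower). After scaling by trimmed means of log ratios the split over all genes was 3.09% higher and 3.34% lower at 50 h and 10.6% higher and 13.2% lower at 72 h, so its direction turned, while the forkhead counts did not move. The median change of the 25 at 72 h was -0.55, beside 0.06 for all tested genes. The 42 h count was 3 without replicate 1 or 2 of 34 h or replicate 1 of 42 h, and the 50 h count was 4 without replicate 1 or 2 of 34 h or replicate 1 of 50 h. The counts over all genes moved too: leaving out 1 library gave 161 to 372 calls in place of 384 for 42 h, 398 to 793 in place of 933 for 50 h and 1867 to 3629 in place of 3578 for 72 h. Those for 42 and 72 h fell by over 1.5 times without any 1 library of the times compared, and that for 50 h without either library of 34 h or replicate 1 of 50 h.

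The test condition bears on these counts. Of the 25 genes, 6 were under 1 TPM in some libraries and were tested through the time points where they were high: FOXD3 through 34 h, FOXB2 and FOXP3 through 34 and 42 h, FOXA2 and FOXL2 through 34 to 50 h, and FOXD1 through 42 to 72 h. Among the other 19, each at 1 TPM or above in every library, 10 changed at 72 h, where 24.2% of the 12445 genes meeting that condition changed (13.3% higher, 10.9% lower). Of these 19, FOXB1, FOXJ1 and FOXO1 changed at 42 h, where 2.42% of the 12445 changed (1.70% higher, 0.723% lower). FOXA3, FOXB1, FOXJ1 and FOXO1 changed at 50 h, where 6.07% changed (3.55% higher, 2.52% lower). FOXA2, called lower between 50 h and 72 h, was among the 6 and under 1 TPM in both 72 h libraries. Genes of the other lists also needed 1 TPM in 2 or more libraries to be tested, and their counts are to be read beside the shares of all tested genes: 1.78% higher with 0.792% lower for 42 h, 3.52% higher with 2.74% lower for 50 h, and 12.7% higher with 11.3% lower for 72 h, where the median was 0.06.

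**Figure D1:**
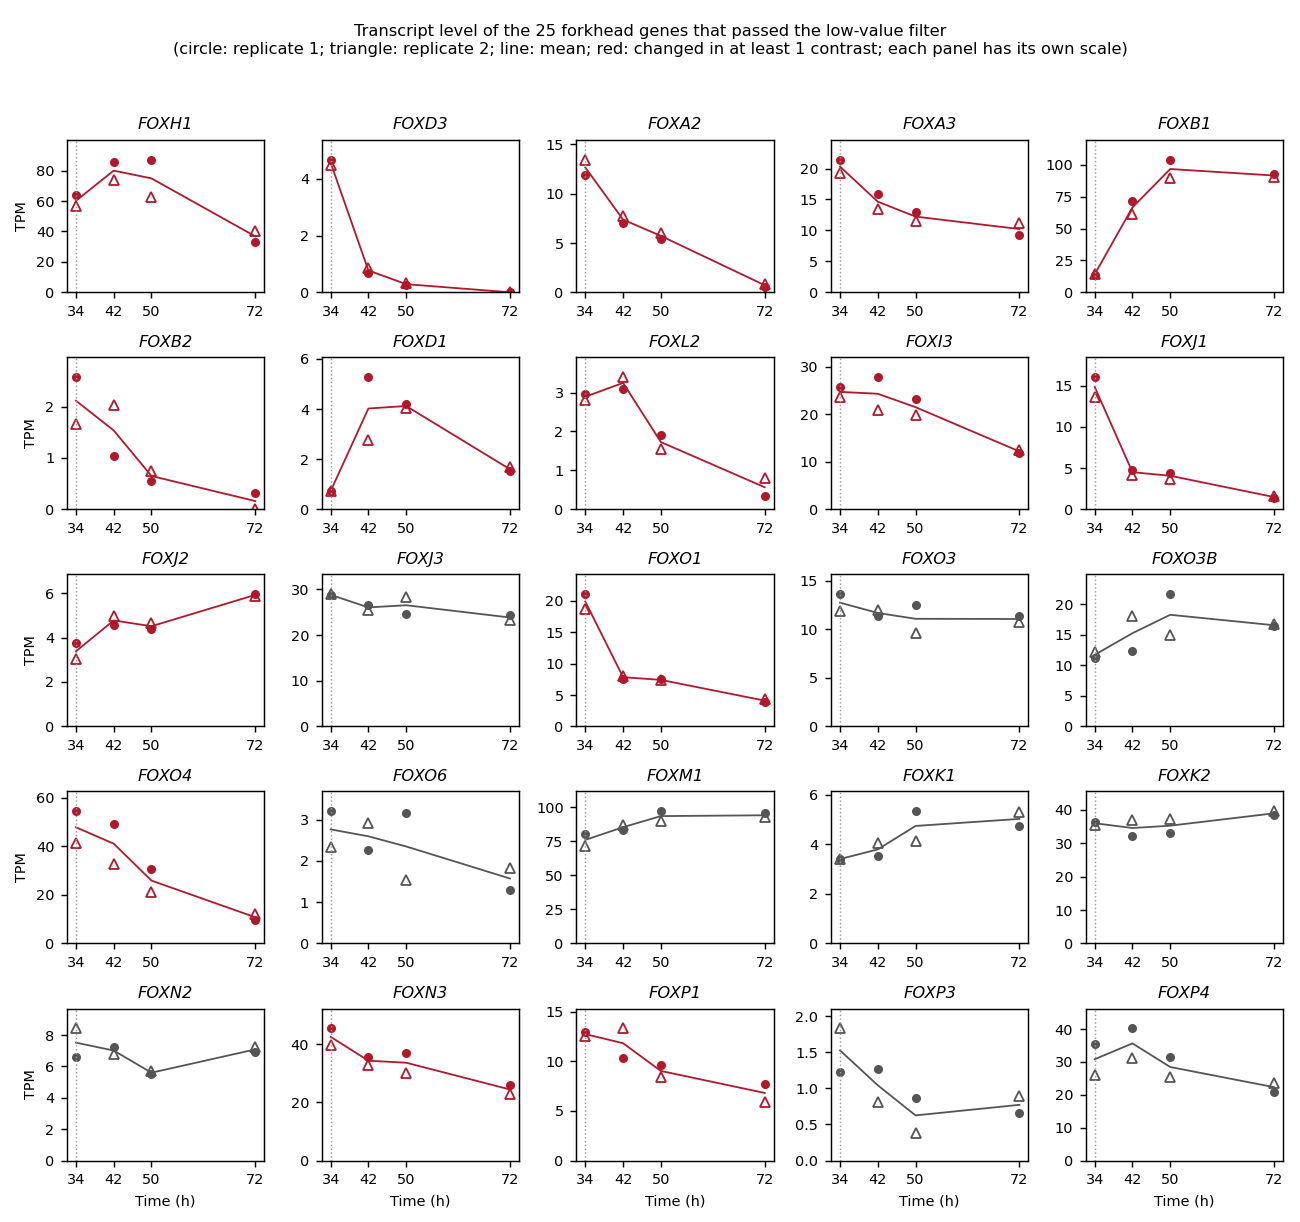
TPM (y axis, a scale per panel) of the 25 tested forkhead genes against time (x axis, h), with circles for replicate 1, triangles for replicate 2, a line through the means and a dotted line at 34 h, when WNT3A was added. Genes changed in at least 1 of the 5 contrasts are red; FOXB1 climbs from 13.9 and 14.4 TPM to 104 and 89.7 between 34 and 50 h, while FOXO1, FOXJ1 and FOXD3 drop between 34 and 42 h.

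**Figure D2:**
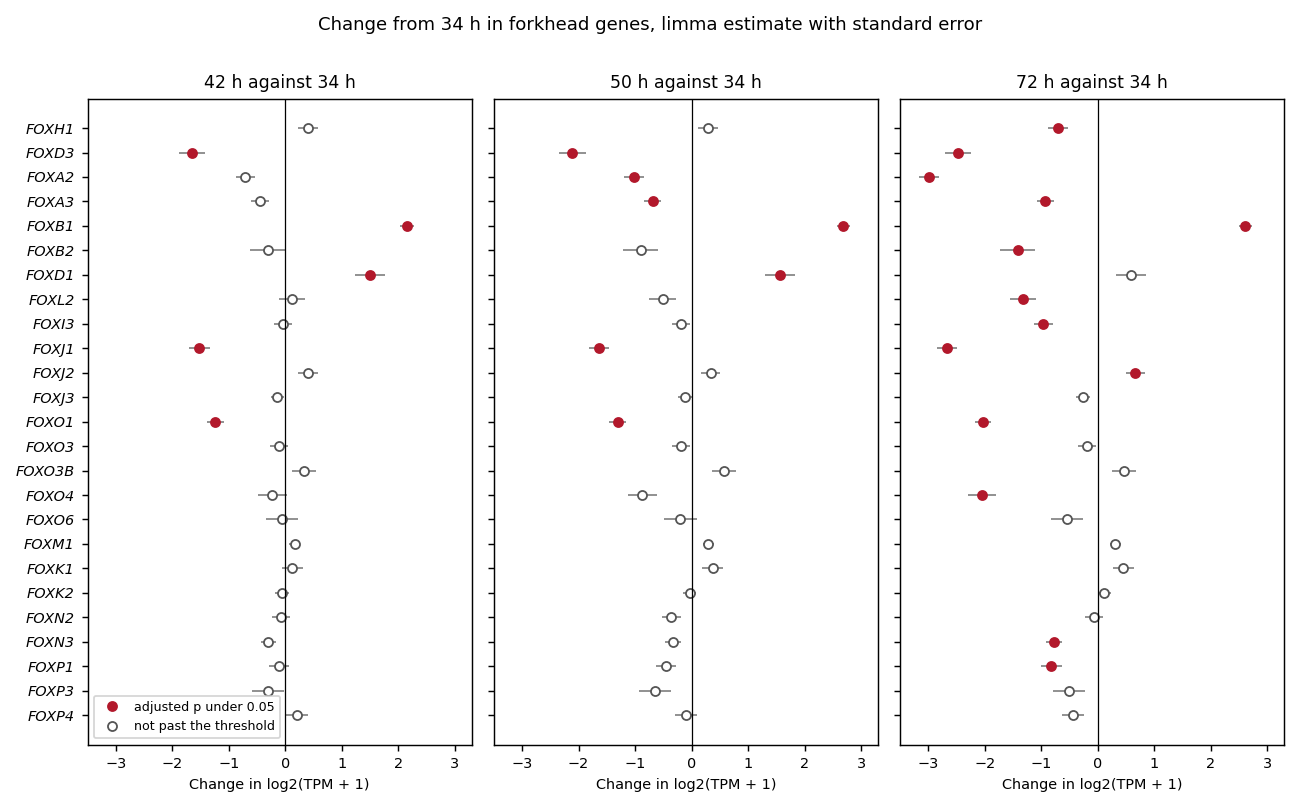
Change in log2(TPM + 1) from 34 h (x axis, limma estimate with its standard error) of each tested forkhead gene (y axis) at 42, 50 and 72 h. Red points passed an adjusted p of 0.05, namely 5 in the first panel, 7 in the second and 14 in the third, and FOXB1 lies farthest to the right in all 3 panels.

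Between 42 h and 50 h limma called 0 of the 25 forkhead genes, with 3 at an unadjusted p under 0.05, where 0.0939% of all tested genes changed (0.0604% higher, 0.0335% lower). Between 50 h and 72 h 6 changed, all lower (FOXA2, FOXH1, FOXI3, FOXJ1, FOXO1 and FOXO4), where 7.33% of all tested genes changed (2.92% higher, 4.41% lower). That count was 1, FOXA2, without replicate 1 of 50 h, without replicate 1 of 72 h, or with the 50 and 72 h libraries fitted alone, and 2, FOXA2 and FOXH1, without replicate 2 of 72 h. A moderated F-test over all contrasts with 34 h called 14 of the 25, where 17.4% of all tested genes were called. It called 9 without replicate 2 of 34 h and 7 without replicate 1 of 72 h. Over all genes, leaving out 1 library gave 1 to 8 calls in place of 14 for 50 h against 42 h, 316 to 911 in place of 1093 for 72 h against 50 h and 1118 to 2478 in place of 2587 for the F-test.

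FOXB1, a factor of the caudal neural tube and diencephalon, rose most, and FOXD3 was among those that fell early. FOXB1 lies at chromosome 15, 60004222 to 60061730, plus strand, and FOXD3 at chromosome 1, 63323041 to 63325126, plus strand (GENCODE release 29, GRCh38). Bases before their RefSeq starts (GRCh38.p14) are shown because, of the called genes with a promoter in the table, these changed most in each direction. The FOXB1 stretch stops where the GENCODE gene begins. Capitals mark the forkhead variant TATTTAC or TATTTGC, here as its reverse complement, in FOXB1, and CTTTGTT, a core bound by HMG-box factors such as SOX proteins, in FOXD3, letters that were both chosen after the sequences were read.
FOXB1 (chr15:60004061-60004221, plus strand): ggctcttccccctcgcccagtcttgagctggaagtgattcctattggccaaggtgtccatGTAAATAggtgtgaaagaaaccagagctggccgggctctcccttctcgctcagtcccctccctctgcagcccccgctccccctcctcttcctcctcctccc
FOXD3 (chr1:63322317-63322566, plus strand): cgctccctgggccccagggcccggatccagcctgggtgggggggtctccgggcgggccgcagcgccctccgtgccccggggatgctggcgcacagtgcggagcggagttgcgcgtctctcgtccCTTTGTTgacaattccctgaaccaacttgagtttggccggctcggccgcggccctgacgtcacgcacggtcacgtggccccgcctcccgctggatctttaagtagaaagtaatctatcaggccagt

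Such matches were not rare. Over 35116 promoter windows of 300 bases, searched on both strands, 6.86% held the TCF/LEF letters CTTTGAT or CTTTGAA, 7.17% the forkhead letters TGTTTAC or TGTTTGC, 2.31% the FOXH1 letters AATCCAC, 5.46% the forkhead variant and 5.20% CTTTGTT. Forkhead windows had a median GC content of 66.8%, beside 58% for all windows. Of the 50 windows of 39 forkhead genes, 3 held the TCF/LEF letters (FOXD4L5, FOXP2, FOXR2), 6 the forkhead letters (FOXA1, FOXD4, FOXD4L3, FOXD4L6, FOXO4, FOXP1) and 0 the FOXH1 letters. The forkhead variant was in 4 (FOXB1, FOXD4, FOXD4L6, FOXJ3) and CTTTGTT in 2 (FOXA1, FOXD3). Of these genes, FOXB1, FOXD3, FOXO4 and FOXP1 changed in at least 1 contrast, as did 15 of all 25 tested forkhead genes. FOXJ3 was tested and not called, and the others with a match did not pass the low-value filter. A link between the letters and the changes was not tested.

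FOXB1 was at 13.9 and 14.4 TPM in the libraries of 34 h, 71.8 and 61.3 in those of 42 h, 104 and 89.7 in those of 50 h and 92.8 and 90.2 in those of 72 h. Every later library stood above both of 34 h, and those of 50 and 72 h overlapped. Its changes from 34 h were 2.15 ± 0.12 (SE) at 42 h, then 2.69 ± 0.12 at 50 h and lastly 2.61 ± 0.12 at 72 h; the limma adjusted p-values were 0.0001005, 2.86e-05 and 6.503e-06. All 3 calls held under each of 16 alternatives. FOXB1 was 2.65 and 3.06% of the summed forkhead TPM in the 34 h libraries against 21.8 and 20.8% at 72 h.

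FOXB2, the paralog of FOXB1, went the other way at a low level. It was at 2.57 and 1.66 TPM in the libraries of 34 h, 1.04 and 2.04 in those of 42 h, 0.561 and 0.739 in those of 50 h and 0.323 and a listed 0 in those of 72 h. The libraries of 34 and 42 h overlapped, and those of 72 h were the lowest. Its change by 72 h was -1.42 ± 0.31 (limma adjusted p 0.01291), a call lost without replicate 1 of 34 h (0.08327) or replicate 2 of 72 h (0.07786).

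FOXD3 and FOXH1, members tied to the early embryo and to Nodal, were both lower by 72 h, FOXD3 already at 42 h. FOXD3 was at 4.65 and 4.48 TPM in the libraries of 34 h, 0.688 and 0.852 in those of 42 h, 0.246 and 0.328 in those of 50 h and a listed 0 in both of those of 72 h. No libraries of different time points overlapped. Relative to 34 h it changed by -1.65 ± 0.24 (SE) at the 42 h point, -2.11 ± 0.24 at 50 h and finally -2.48 ± 0.24 at 72 h (limma adjusted p 0.008936, 0.001524 and 0.0002386). The 42 h call was lost under 5 of 15 alternatives, among them the omission of any 1 library of 34 or 42 h (range over all 0.001263 to 0.09879). The antisense gene FOXD3-AS1 holds 6.03% of the 31-base words of FOXD3, and since the sources do not say that strand was used, reads from the stretches such pairs share cannot be told apart.

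FOXH1 was among the most abundant members, at 63.7 and 56.6 TPM in the libraries of 34 h, 85.9 and 74.1 in those of 42 h, 86.9 and 62.9 in those of 50 h and 33.0 and 40.5 in those of 72 h. The libraries of 72 h were below all others, and those of 50 h overlapped both earlier time points. Its change was 0.40 ± 0.17 at 42 h and 0.30 ± 0.17 at 50 h, neither called (limma adjusted p 0.3553 and 0.3985). From 50 h to 72 h it changed by -0.996 ± 0.17 (0.01299), and from 34 h to 72 h by -0.70 ± 0.17 (0.02211). The latter call was lost without replicate 1 or 2 of 34 h, without replicate 1 of 72 h and without the low-value filter (range over all alternatives 0.01108 to 0.1355), and the former without replicate 1 of 50 h or of 72 h and with these times alone (range 0.007082 to 0.1097). The kinesin gene KIFC2, which overlaps FOXH1, holds 30.4% of its 31-base words, so the division of reads between them is uncertain. Mean KIFC2 levels were 13.4 ± 3.11 TPM (SD, n = 2) in the first group and 18.3 ± 4.61 in the last.

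Genes that work with FOXH1 moved in both directions. Of 18 Nodal partners and targets listed 13 were tested: 3 rose and 0 fell at 42 h, 3 rose and 1 fell at 50 h (MIXL1, SMAD2 and SMAD3 up, TDGF1 down), and 1 rose and 2 fell at 72 h, with a median change of 0.07 by 72 h. Over the alternatives 1 to 4, 1 to 5 and 2 to 4 were called, the 1 at 42 h without replicate 2 of 34 h or either library of 42 h, while at 50 h 1 or 2 were called without any 1 library of 34 or 50 h, and 3 rose and 2 fell after scaling by trimmed means. Of those named, NODAL, MIXL1 and GDF3 were under 1 TPM in some libraries. TDGF1, the Nodal co-receptor, fell by 7.17 on the log2 scale and GDF3, a Nodal-related ligand, by 1.41, while SMAD3 rose by 1.46. DRAP1, a corepressor of FOXH1, and SMAD4 were the most abundant uncalled ones, with 0.07 and -0.10. The 3 that rose at 42 h, named after their values were seen, were NODAL itself, SMAD2 and SMAD3. NODAL was at 0.572 and 0.449 TPM in the libraries of 34 h, 8.32 and 7.84 in those of 42 h, 2.10 and 1.16 in those of 50 h and 0.417 and 0.361 in those of 72 h. The feedback inhibitors LEFTY1 and LEFTY2 stayed under 1 TPM in all 8 libraries.

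For the neural crest, where FOXD3 is an early factor, 11 of 15 listed genes were tested. At 42 h 2 rose and 0 fell (MSX1 and SOX9), at 50 h 4 rose and 0 fell, and at 72 h 4 rose and 1 fell. The median changes were 0.54, 0.53 and -0.02, beside 0.01, 0.04 and 0.06 over all tested genes. Of those risen at 50 h, MSX1, MSX2 and SNAI2 were under 1 TPM in some libraries. The 50 h count moved by over 1.5 times under some alternatives. All 4 that rose by 72 h were under 1 TPM in both libraries of 34 h and were tested through later ones, where they were high. Of the 5 tested genes at 1 TPM or above in every library 0 rose and 1 fell at 72 h. Over the alternatives 1 to 2 were called at 42 h, the 1 among others without replicate 2 of 34 h or of 42 h, and 1 to 6 at 72 h, the 1 with a mean of at least 5 TPM. SNAI2, a zinc finger factor of migrating crest, rose by 2.38 by 72 h, PAX3 by 2.29, MSX2 by 1.69 and MSX1 by 1.46, while SNAI1 fell by 0.75. SOX9 and TFAP2C were the most abundant uncalled ones at 72 h, with 0.16 and -0.68. SOX9 was at 15.0 and 13.5 TPM in the libraries of 34 h and 27.9 and 27.5 in those of 42 h. It was at 26.3 and 27.7 in those of 50 h and 16.1 and 16.0 in those of 72 h.

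FOXA2 had the largest fall of the tested forkhead genes by 72 h in log2(TPM + 1), and FOXA3 fell too. With a pseudocount of 0.1 the fall of FOXD3, listed at 0 in both 72 h libraries, was the larger, -5.54 beside -3.98 for FOXA2. FOXA2 (chromosome 20, 22581005 to 22585455, minus strand) was at 11.9 and 13.4 TPM in the libraries of 34 h, 7.02 and 7.73 in those of 42 h, 5.42 and 6.03 in those of 50 h and 0.575 and 0.866 in those of 72 h. No libraries of different time points overlapped. Its change was not called at 42 h (-0.71 ± 0.18, limma adjusted p 0.09769) and was called at 50 h (-1.02 ± 0.18, 0.01253) and 72 h (-2.99 ± 0.18, 1.905e-05). The 50 h call was lost without replicate 1 or 2 of 34 h or replicate 1 of 50 h (0.05979, 0.1054, 0.07776). The step from 50 h to 72 h was -1.97 ± 0.18 (0.0006831), called under all 16 alternatives.

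FOXA3 was at 21.4 and 19.3 TPM in the libraries of 34 h, 15.9 and 13.4 in those of 42 h, 12.9 and 11.6 in those of 50 h and 9.29 and 11.1 in those of 72 h. Its levels did not overlap between time points either. The change by 72 h was -0.93 ± 0.15 (limma adjusted p 0.003694), and that by 50 h, -0.69 ± 0.15 (0.03695), was lost under 9 of 16 alternatives (range 0.02574 to 0.1753), among them the omission of any 1 library of 34, 50 or 72 h. Within each library the ratio of FOXA2 to FOXA3 was 0.5583 and 0.696 in the 34 h pair and 0.0619 and 0.07765 in the 72 h pair. FOXA1 reached at most 0.246 TPM and was not tested.

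Of 17 listed genes of endoderm and floor plate, where FOXA2 acts, 8 were tested: 5 rose and 0 fell at 42 h (NKX6-1, NTN1, SPON1, CXCR4 and PTCH1), 4 rose and 1 fell at 50 h, and 5 rose and 2 fell at 72 h (the same 5 up, AFP and HHEX down), with a median change of 0.97 by 72 h. Of these 8, NKX6-1, AFP and HHEX were under 1 TPM in some libraries, and of the other 5 genes 4 rose and 0 fell at 72 h. Over the alternatives 3 to 5, 2 to 6 and 3 to 7 were called: at 42 h 3 without either library of 42 h, at 50 h 3 without replicate 2 of 34 h, and at 72 h 4 without replicate 2 of 34 h or of 72 h. NKX6-1, a ventral neural tube factor, was at a listed 0 and 0.130 TPM in the libraries of 34 h, 8.41 and 5.82 in those of 42 h, 4.19 and 4.16 in those of 50 h and 5.08 and 6.15 in those of 72 h. It rose by 2.63 by 72 h, SPON1, a secreted floor plate protein, by 2.32 and the chemokine receptor gene CXCR4 by 1.68, while AFP, a fetal liver and yolk sac protein, fell by 2.13. GLI1 was not called, with -0.33. SOX17 and TTR, which mark endoderm and its derivatives, were listed at 0 in all 8 libraries.

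Of 10 members known from mesoderm and mesenchyme, FOXD1 and FOXL2 were tested, and FOXC1, FOXC2, FOXD2, FOXF1, FOXF2, FOXL1, FOXQ1 and FOXS1 reached at most 0.598 TPM, in FOXS1. FOXD1, a factor of kidney stroma and ventral diencephalon, was at 0.734 and 0.725 TPM in the libraries of 34 h, 5.27 and 2.77 in those of 42 h, 4.19 and 4.05 in those of 50 h and 1.51 and 1.68 in those of 72 h. The libraries of 42 and 50 h overlapped and were above those of 34 and 72 h. Its change was 1.49 ± 0.26 at 42 h and 1.57 ± 0.26 at 50 h (limma adjusted p 0.02479 and 0.01132), and at 72 h it was not called (0.59 ± 0.26, 0.1477). The 42 h call was lost under 7 of 15 alternatives (range 0.01572 to 0.1477), among them the omission of any 1 library of 34 or 72 h or of replicate 1 of 42 h. The 50 h call was lost under 4 of 15 (range 0.006809 to 0.07334), without any 1 library of 34 or 50 h. The antisense gene FOXD1-AS1 holds 14.2% of its 31-base words.

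FOXL2, an ovarian and eyelid factor, was at 2.97 and 2.82 TPM in the libraries of 34 h, 3.10 and 3.39 in those of 42 h, 1.91 and 1.55 in those of 50 h and 0.343 and 0.793 in those of 72 h. No libraries of different time points overlapped, and those of 72 h were the lowest. The change by 72 h was -1.33 ± 0.23 (limma adjusted p 0.004686, called under all 15 alternatives that tested it). Its neighbour on the opposite strand, FOXL2NB, had 7.31 ± 1.72 TPM (SD, n = 2) in the first group and 0.551 ± 0.235 in the last, a change of -2.42 (0.001673); it was under 1 TPM in both 72 h libraries and was tested through earlier ones, where it was high. Of 13 paraxial and lateral mesoderm genes listed 3 were tested, and 0 rose and 2 fell at 72 h, the endothelial receptor gene KDR by 0.91 and PDGFRA, under 1 TPM in some libraries, by 1.04 on the log2 scale. That count was 1 without any 1 library of 34 or 72 h. TCF15 was not called, with -0.43, and MSGN1 and HAND2 were listed at 0 throughout.

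FOXI3, a factor of the preplacodal ectoderm, was the 1 tested member of 6 known from placodes and epithelia. It was at 25.8 and 23.7 TPM in the libraries of 34 h, 27.8 and 20.9 in those of 42 h, 23.1 and 19.9 in those of 50 h and 12.0 and 12.4 in those of 72 h. The libraries of 42 h overlapped those of 34 and 50 h, and those of 72 h lay below all. The change by 72 h was -0.96 ± 0.16 (limma adjusted p 0.003769, called under all 16 alternatives). The step from 50 h to 72 h, -0.77 ± 0.16 (0.02558), was lost under 6 of 16 alternatives (range 0.01731 to 0.1487), among them the omission of any 1 library of 50 or 72 h. FOXE1, FOXE3, FOXI1, FOXI2 and FOXN1 reached at most 0.530 TPM, in FOXI2.

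FOXJ1, the master factor of motile cilia, was lower from 42 h on. FOXJ1 (chromosome 17, 76136333 to 76141299, minus strand) was at 16.0 and 13.6 TPM in the libraries of 34 h, 4.79 and 4.21 in those of 42 h, 4.43 and 3.71 in those of 50 h and 1.35 and 1.63 in those of 72 h. The libraries of 42 and 50 h overlapped, below those of 34 h and above those of 72 h. Relative to 34 h it changed by -1.52 ± 0.18 (SE) at the 42 h point, -1.64 ± 0.18 at 50 h and finally -2.67 ± 0.18 at 72 h (limma adjusted p 0.003747, 0.001502 and 3.958e-05), called under all 16 alternatives. The step from 50 h to 72 h was -1.02 ± 0.18 (0.01415) and was lost under 4 of 16 alternatives (range 0.008817 to 0.1003), among them the omission of replicate 1 of 50 h or either library of 72 h.

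Of 13 listed genes of ciliated cells 6 were tested: 0 rose and 1 fell at 42 h (MYB), and 2 rose and 1 fell at 72 h, with a median change of -0.03. Of these 6, 4 were under 1 TPM in some libraries, MYB and DNAH9 among them. The 42 h count was 0 without any 1 library of 34 or 42 h, and the 72 h count was 1 to 3 over the alternatives, with 1 rise and 1 fall after scaling by trimmed means. MYB, a factor of multiciliated and blood progenitors, was at 9.80 and 11.6 TPM in the libraries of 34 h, 3.85 and 3.82 in those of 42 h, 2.19 and 2.24 in those of 50 h and 0.931 and 0.760 in those of 72 h, a fall of 2.66 on the log2 scale by 72 h. DNAH9, an axonemal dynein heavy chain, rose by 2.41 and RFX2 by 0.96. RFX3 and TPPP3 were not called, with -0.15 and 0.08, and TEKT1 was listed at 0 throughout. FOXN4, which acts in multiciliated cells and retinal progenitors, reached 0.839 TPM, the highest of any untested forkhead gene.

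FOXJ2, a widely expressed relative of FOXJ1, was the other member that rose by 72 h, at 3.74 and 3.02 TPM in the libraries of 34 h, 4.57 and 4.97 in those of 42 h, 4.37 and 4.65 in those of 50 h and 5.95 and 5.89 in those of 72 h. The libraries of 42 and 50 h overlapped, and those of 72 h were the highest. Its change by 72 h was 0.66 ± 0.17 (limma adjusted p 0.0261), lost under 5 of 15 alternatives (range 0.01193 to 0.138), among them the omission of replicate 2 of 34 h or either library of 72 h. FOXJ3 was not called, with 28.8 ± 0.172 TPM in the first group and 23.9 ± 0.876 in the last (-0.26 ± 0.12, 0.1407). Within each library the ratio of FOXJ1 to FOXJ3 was 0.5577 and 0.4713 in the 34 h pair and 0.0553 and 0.07006 in the 72 h pair.

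The FOXO genes, the insulin-regulated members, summed to 92.3 and 74.2 TPM in the 34 h libraries against 26.2 and 28.8 at 72 h. FOXO1 (chromosome 13, 40469953 to 40666597, minus strand) was at 21.0 and 18.7 TPM in the libraries of 34 h, 7.62 and 8.06 in those of 42 h, 7.49 and 7.32 in those of 50 h and 3.90 and 4.31 in those of 72 h. No time points overlapped, though those of 42 and 50 h lay close together. Relative to 34 h it changed by -1.24 ± 0.14 (SE) at the 42 h point, -1.31 ± 0.14 at 50 h and finally -2.03 ± 0.14 at 72 h (limma adjusted p 0.0035, 0.001502 and 4.937e-05), called under all 16 alternatives. The step from 50 h to 72 h, -0.72 ± 0.14 (0.02266), was lost under 5 of 16 alternatives (range 0.01761 to 0.141), among them the omission of any 1 library of 50 or 72 h.

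FOXO4 (chromosome X, 71096197 to 71103535, plus strand) was at 54.4 and 41.3 TPM in the libraries of 34 h, 49.4 and 32.8 in those of 42 h, 30.8 and 21.0 in those of 50 h and 9.60 and 12.0 in those of 72 h. Replicate 2 was the lower library at 34, 42 and 50 h and the higher at 72 h, and those of 34 and 42 h overlapped. Its change was -0.23 ± 0.25 at 42 h and -0.87 ± 0.25 at 50 h, neither called (limma adjusted p 0.7959 and 0.08694), and -2.04 ± 0.25 at 72 h (0.0008757), called under all 16 alternatives. The step from 50 h to 72 h, -1.17 ± 0.25 (0.02826), was lost under 6 of 16 (range 0.01706 to 0.1792), among them the omission of replicate 1 of 50 h or either library of 72 h.

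FOXO3 was not called in any contrast, with 12.7 ± 1.22 TPM (SD, n = 2) in the first group and 11.1 ± 0.488 in the last (-0.19 ± 0.16, limma adjusted p 0.4364). The pseudogene FOXO3B was listed at 11.7 ± 0.629 and 16.5 ± 0.212 TPM. FOXO3 holds 73.5% of its 31-base words, and FOXO3B 18.2% of those of FOXO3, so their split is uncertain; their sum was 24.9 and 24.0 TPM in the 34 h libraries against 27.8 and 27.4 at 72 h. FOXO6, summed over 2 Ensembl rows of which 1 is in GENCODE release 29, had 2.76 ± 0.619 and 1.57 ± 0.377 TPM and was not called.

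Ratios within the subfamily also depended on how the FOXO3 reads were split. The ratio of FOXO1 to FOXO3 within each library was 1.545 and 1.574 in the 34 h pair, 0.6702 and 0.6707 in the 42 h pair and 0.3421 and 0.402 in the 72 h pair. Against the sum of FOXO3 and FOXO3B, FOXO1 was the lower in the 34 h and the 72 h libraries alike. FOXO4 to FOXO3 was 3.997 and 3.472 in the first group and 0.8413 and 1.117 in the last.

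**Figure D3:**
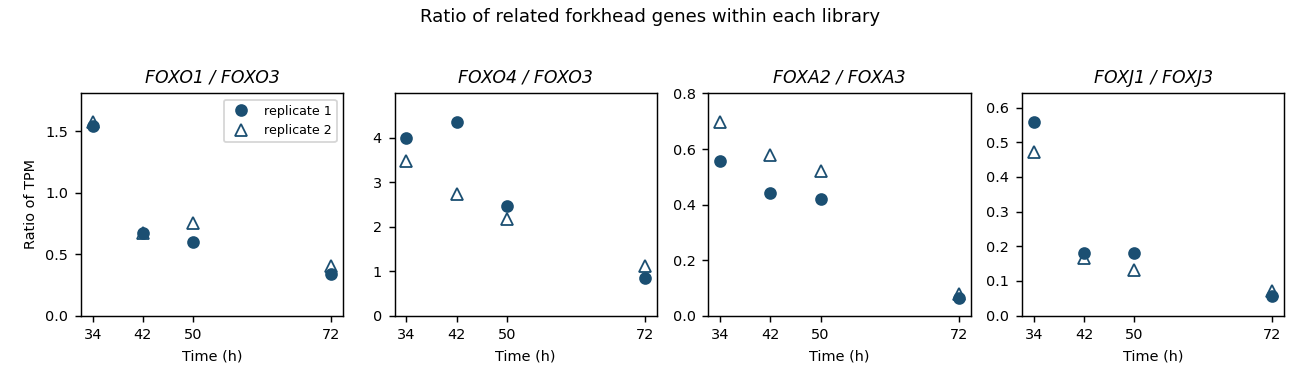
Ratio of TPM (y axis, linear from 0, a scale per panel) between related forkhead genes in each library against time (x axis, h), with circles for replicate 1 and triangles for replicate 2. FOXO1 to FOXO3 and FOXJ1 to FOXJ3 are down by 42 h, at 0.6702 and 0.6707 and at 0.1801 and 0.1651, while FOXA2 to FOXA3 is still 0.4201 and 0.5216 at 50 h and reaches 0.0619 and 0.07765 at 72 h.

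Of 26 listed regulators and targets of FOXO proteins 23 were tested: 2 rose and 0 fell at 42 h (BCL6 and CCNG2), 4 rose and 1 fell at 50 h, and 6 rose and 2 fell at 72 h, with a median change of 0.29 by 72 h. All 23 were at 1 TPM or above in every library. Over the alternatives 1 to 2, 3 to 6 and 3 to 9 were called. The 42 h count was 1 without any 1 library other than replicate 2 of 42 h, the 50 h count 3 without either library of 34 h or replicate 1 of 50 h, and the 72 h count 3 without replicate 1 of 34 h or replicate 2 of 72 h and 4 without replicate 2 of 34 h or replicate 1 of 72 h. After scaling by trimmed means 4 rose and 3 fell at 72 h. BCL6, a repressor gene that FOXO proteins can switch on, was at 10.0 and 9.86 TPM in the libraries of 34 h, 35.9 and 36.7 in those of 42 h, 41.3 and 45.6 in those of 50 h and 53.9 and 58.4 in those of 72 h, a rise of 2.38 by 72 h. CCNG2, an atypical cyclin and FOXO target, rose by 1.26 and the cell cycle inhibitor gene CDKN1A by 0.91, while TRIB3, an inhibitor of AKT, fell by 1.56. AKT2 and SOD2 were the most abundant uncalled ones, with 0.29 and -0.02.

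FOXM1, the mitotic activator, was the most abundant forkhead transcript in 6 of the 8 libraries. It was at 80.3 and 71.9 TPM in the libraries of 34 h, 83.6 and 87.3 in those of 42 h, 97.1 and 90.1 in those of 50 h and 95.5 and 92.9 in those of 72 h. All later libraries were above both of 34 h, but the change by 72 h, 0.31 ± 0.10, was not called (limma adjusted p 0.05198). ITFG2, which overlaps FOXM1 and holds 14.4% of its 31-base words, had 22.8 ± 0.614 TPM (SD, n = 2) in the first group and 18.0 ± 9.24 in the last. All 23 listed G2/M genes that FOXM1 is known to bind with its partners were tested: 0 rose and 0 fell at 42 h, 2 rose and 0 fell at 50 h (CENPA and KIF20A), and 10 rose and 1 fell at 72 h (12.7% and 11.3% over all tested genes), with a median change of 0.34 by 72 h (0.06 over all). The 50 h count was 0 without replicate 2 of 34 h or replicate 1 of 50 h and 1 without the other library of either time, and the 72 h count was 7 without either library of 34 h and 4 without either of 72 h. CENPA, the centromeric histone, rose by 1.08, the kinesin gene KIF20A by 0.76, CENPE by 0.72 and the kinase gene NEK2 by 0.65, and BUB1, a checkpoint kinase gene, fell by 0.56. CCNB1 and CDC20 were the most abundant uncalled ones, with 0.08 and 0.01.

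Of the broadly expressed FOXK and FOXN genes, FOXN3 was the 1 that changed. FOXN3, a repressor linked to cell cycle checkpoints, was at 45.5 and 39.7 TPM in the libraries of 34 h, 35.8 and 32.9 in those of 42 h, 37.1 and 30.2 in those of 50 h and 25.9 and 23.0 in those of 72 h. The libraries of 34 h were above all others and those of 72 h below. Its change by 72 h was -0.77 ± 0.14 (limma adjusted p 0.005412), called under all 16 alternatives. FOXK2 had 35.9 ± 0.623 TPM (SD, n = 2) in the first group and 38.9 ± 0.843 in the last, FOXK1 3.40 ± 0.00993 and 5.02 ± 0.411, and FOXN2 7.52 ± 1.29 and 7.09 ± 0.194. Their changes by 72 h were 0.11 ± 0.12, 0.45 ± 0.19 and -0.07 ± 0.16, with limma adjusted p-values of 0.5286, 0.1188 and 0.8075.

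FOXP1, a broadly expressed factor, was the called member among the FOXP genes. It was at 13.0 and 12.5 TPM in the libraries of 34 h, 10.3 and 13.3 in those of 42 h, 9.65 and 8.40 in those of 50 h and 7.72 and 5.90 in those of 72 h. The libraries of 34 and 42 h overlapped, and those of 72 h were the lowest. Its change by 72 h was -0.82 ± 0.18 (limma adjusted p 0.01365), lost without replicate 1 or 2 of 34 h or replicate 2 of 72 h (0.06873, 0.06199, 0.09135). FOXP4 was more abundant, with 30.8 ± 6.72 TPM (SD, n = 2) in the first group and 22.3 ± 1.95 in the last, and was not called (-0.43 ± 0.19, 0.1402). FOXP3, the regulatory T cell factor, lay between 0.386 and 1.83 TPM and was not called, and FOXP2 reached at most 0.147 TPM.

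The rest were at or near 0. Of the 27 untested genes 6 were listed at 0 in all 8 libraries: FOXD4L3, FOXI1, FOXN3P1, FOXO1B, FOXR1 and FOXR2. The 6 FOXD4 copies (FOXD4, FOXD4L1 and FOXD4L3 to FOXD4L6) share 68.6% to 98.5% of their 31-base words with other genes, so reads cannot be assigned to one of them with confidence, and their highest value was 0.476 TPM, in FOXD4.

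Summed over all 52 genes, the level was 524 and 470 TPM in the libraries of 34 h, 554 and 510 in those of 42 h, 570 and 492 in those of 50 h and 427 and 435 in those of 72 h. The first 3 time points overlapped, and both libraries of 72 h were lower. The 4 most abundant members held 46.6 and 44.6% of the sum in the 34 h libraries, where they were FOXM1, FOXH1, FOXO4 and FOXN3, and 60.8 and 60.5% at 72 h, where they were FOXM1, FOXB1, FOXH1 and FOXK2. Members at 10 TPM or above numbered 16 in both libraries of 34 h and 10 and 12 in those of 72 h. Of the 25 tested genes, the highest mean fell on 34 h for 15, on 42 h for 3, on 50 h for 3 and on 72 h for 4.

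**Figure D4:**
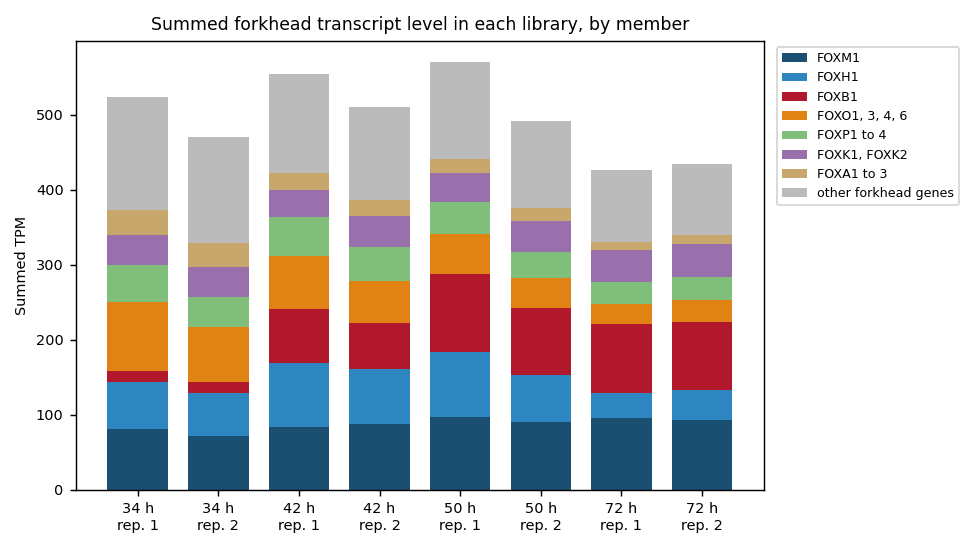
Summed TPM (y axis, linear from 0) of the 52 forkhead genes in each of the 8 libraries (x axis), stacked by member or subfamily. The FOXB1 segment grows from 2.65 and 3.06% to 21.8 and 20.8% of the bar between 34 and 72 h, and the FOXO segment shrinks from 92.3 and 74.2 TPM to 26.2 and 28.8.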

How the data were processed

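Poly(A) RNA of 8 libraries was sequenced, 2 at each of 4 time points. Values are the TPM that the authors deposited, 1 column for each library; Salmon 1.9.0 and GRCh38 are named in the submitters' processing notes, and annotation, settings and filters are not given in the sources used here. Rows of 1 gene name were summed. Genes at 1 TPM or above in 2 or more libraries were fitted as log2(TPM + 1), with a mean per time point and a variance that follows the level, in limma 3.58.1 (R 4.3.3). P-values are two-sided and Benjamini-Hochberg adjusted over 14908 genes. The fit was tested on simulated data. Members and lists were chosen with earlier results of these data known, so lists are described by counts and medians. Full values are given for members called in any of 5 contrasts and for FOXA2, FOXD3 and FOXH1, and FOXM1 and a few list genes were added after their values were seen. From each list set beside a forkhead member come up to 4 called genes with the largest change at 72 h. Up to 2 uncalled ones with the highest level are given too. The lists of pluripotency, neural progenitor, neuronal, surface ectoderm, trophoblast and blood markers are given by sums and some members only. Replicate number is labelled as batch too, which pairs libraries: differences between replicates correlated across genes at 0.0949 to 0.195 among 34, 42 and 50 h, and at -0.104 to -0.0445 between these and 72 h. The 31-base words are those of GENCODE release 29 transcripts, on both strands; 52 of 53 forkhead rows matched that release. Promoters are RefSeq's (GRCh38.p14), matched by symbol for 39 genes. A planned comparison of proteins was not run. The values of 1 untested member and of the list tied to it are not reported here. Alternatives were a pseudocount of 0.1, no low-value filter, a filter on a mean of 5 TPM, scaling by trimmed means of log ratios, a variance without a trend, only the compared times, the replicate block, rows kept apart, and leaving out each library.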

Additional observations from a re-analysis of the deposited data

How the results depend on the processing

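Of the 32 calls of a forkhead gene in a contrast, 18 held under every alternative that tested the gene, and none of the 534 recomputed forkhead changes reversed. Scaling by trimmed means left all 32 calls in place and moved the median of all tested genes at 72 h against 34 h from 0.06 to 0.0034. With the replicate block all 32 calls held, and the F-test called 12 genes in place of 14, without FOXB2 and FOXP1. The count at 42 h against 34 h was 5, and 3 with a mean of at least 5 TPM, a filter that left FOXD1 and FOXD3 untested. At 72 h against 50 h it was 6, and 1 with only these time points in the fit; the cause was not tested. Leaving out 1 library gave 3 to 5 calls at 42 h and 4 to 7 at 50 h against 34 h, 11 to 14 at 72 h against 34 h, 0 in every case at 50 h against 42 h, 1 to 7 at 72 h against 50 h, and 7 to 13 by the F-test. The time point left with 1 library is then assumed to vary like the others. Gained calls were FOXD1 and FOXL2 at 72 h against 50 h, and FOXF2 at 72 h against 34 h without the low-value filter. Of 621 recomputed counts for the other lists 141 moved by over 1.5 times. Depth is unknown, so no detection limit can be given for genes listed at 0.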
